A study of Mus musculus with 6 samples.

Results

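A set of 10 genes for regulators of the hypothalamus and its neuroendocrine neurons was examined in RNA from mouse ganglionic eminences, with and without Dlx1 and Dlx2. The members are the 10 rows of the deposited count table, out of 55416, whose symbol is Otp, Sim1, Hmx2, Hmx3, Fezf1, Lhx5, Rax, Nkx2-2, Nkx2-4 or Arnt2. They were picked with the difference between the genotypes in these same libraries already known. Their levels and fold changes are therefore given as a description, with no test of their own.

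The 6 libraries came from ganglionic eminences at E13.5 (embryonic day), the ventral swellings of the embryonic telencephalon. The 3 libraries labelled Dlx1/Dlx2 double knockout are named for a pair of neighbouring homeobox genes, and the other 3 were from wild-type littermates. The labels do not give the targeted alleles, the strain, the sex or which part of the eminences was taken, nor do they say whether a library is from 1 embryo or several. Tests thus measure the spread between these libraries, which may be in part technical.

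In the hypothalamus, Otp and Sim1 act side by side in the precursors of the paraventricular and supraoptic nuclei. Otp is a homeodomain protein, and Sim1 is a basic helix-loop-helix PAS (bHLH-PAS) protein that binds DNA as a dimer with Arnt2. Together they are needed for neurons that make vasopressin, oxytocin, corticotropin-releasing hormone and thyrotropin-releasing hormone, a path that also uses the POU factor Pou3f2. Hmx2 and Hmx3 are neighbouring homeobox genes required together for hypothalamic neurons that make growth hormone-releasing hormone. Rax, Nkx2-2 and Nkx2-4 mark ventral and floor territories of the forebrain, while Fezf1 and Lhx5 also act in the telencephalon, outside the hypothalamus.

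Total counts per library were 56618090 to 70114173. A library with 3 reads of a gene stood at 0.0432 to 0.052 CPM, reads of a gene scaled to library size with TMM (trimmed mean of M values). This floor covers counting error only. Dlx2 had 16510 to 20100 reads per wild-type library and 436 to 762 per double knockout library. Dlx1 had 25430 to 28650 reads and 4373 to 6523 reads, so reads of both genes, and more of Dlx1, were still counted in the double knockouts. For both genes every double knockout library was below every wild-type library. Of the 9 ganglionic eminence markers listed, all 9 averaged 1 CPM or more in the wild type. Double knockout replicate 3 stood apart from the other double knockouts in regional genes. Y-linked genes were expressed in wild-type replicate 1 and double knockout replicates 2 and 3, so both sexes were in both genotypes. Ttr, a choroid plexus marker, had 1540 reads in wild-type replicate 1 and 0 to 10 elsewhere.

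Of the members, 3, Otp, Hmx3 and Hmx2, were higher in all 3 double knockout libraries than in any wild-type library. Of the 8 members that could be tested, these 3 passed and 0 passed in the other direction, with edgeR's quasi-likelihood test and a Benjamini-Hochberg threshold of 0.05. Over all 23628 genes tested, 2.68% passed (1.34% in the upward direction), and 9.3% had all double knockout libraries above the wild type. The members were chosen on this contrast, so nothing is read from their share. In bulk tissue, a change in the number of cells of a type and a change in the RNA of a gene per cell cannot be told apart.

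Otp (ENSMUSG00000021685) had the largest difference among the members. The wild-type libraries held 650, 339 and 767 reads of Otp, and the double knockout libraries held 7873, 6508 and 8393. In TMM-scaled CPM, Otp was at 11.1, 5.27 and 11.96 in wild-type replicates 1 to 3 and at 121, 113 and 121 in double knockout replicates 1 to 3. The groups were far apart, and the double knockout libraries lay close to each other. The means were 9.44 ± 3.63 CPM (SD, n = 3) and 118 ± 4.78 CPM (SD, n = 3), a 12.6-fold difference, or 3.65 on the log2 scale (SE 0.257). The coefficient of variation of Otp was 38.5% in the wild type and 4.03% in the double knockout. Among the 4559 tested genes within a factor of 2 of its mean level over all 6 libraries, the median was 4.26% and 5.31%. That mean lay above the wild-type libraries and below the double knockouts, so neither genotype was compared at its own level. The wild-type spread came chiefly from replicate 2, at 45.8% of the mean of replicates 1 and 3. By the same measure wild-type replicate 2 was also low in Sim1 (34.5%) and in the thalamic marker Olig3 (15.4%). It was not low in Hmx2 (162%), Hmx3 (109%) or Lhx5 (95.3%).

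Hmx3 (ENSMUSG00000040148) was at 1.55, 1.26 and 0.764 CPM in the wild type and 7.95, 7.16 and 7.06 CPM in the double knockout. These levels rest on 49 to 91 wild-type reads and 413 to 516 double knockout reads. All 3 double knockout libraries were above the wild type with little spread among them. The log2 fold change of Hmx3 was 2.63 (SE 0.225), or 6.21-fold. Its neighbour Hmx2 (ENSMUSG00000050100) was at 1.30, 1.80 and 0.935 CPM in the wild type and 5.50, 4.56 and 4.70 CPM in the double knockout. Hmx2 had 60 to 116 and 263 to 357 reads by genotype, again without overlap, and its log2 fold change was 1.87 (SE 0.225), or 3.65-fold. In the wild type replicate 3 was the lowest library for both Hmx genes, whereas Otp and Sim1 were lowest in replicate 2. The other gene of the family, Hmx1, had 0 to 4 reads in every library and was not tested.

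**Figure D1:**
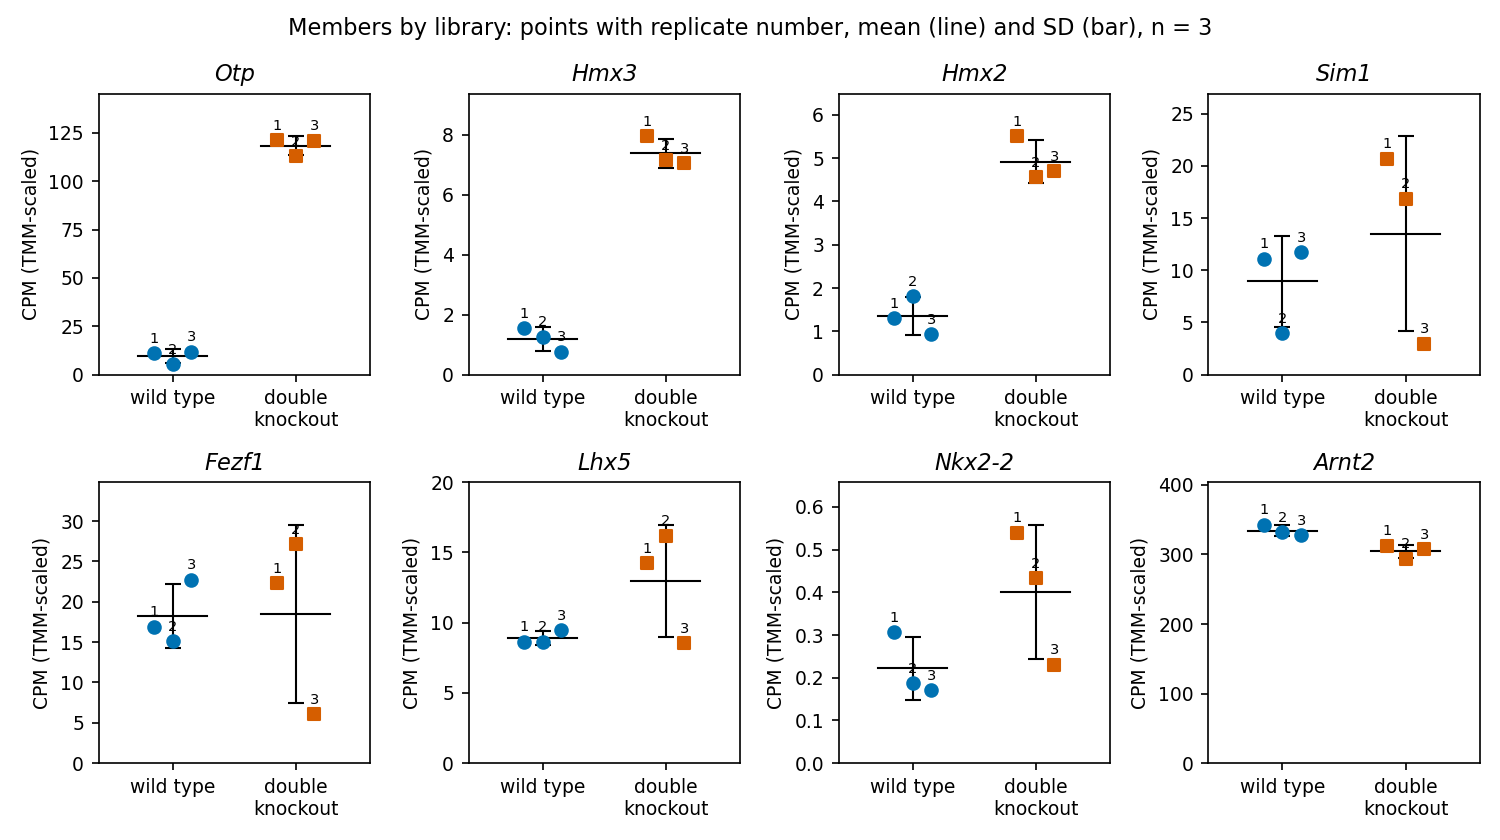
TMM-scaled CPM of the 8 members that were tested, by genotype, with each library as a point labelled with its replicate number, the mean as a line and the SD as a bar (n = 3). Otp, Hmx3 and Hmx2 are separated by genotype, while double knockout replicate 3 is the lowest of the 3 double knockout points for Sim1, Fezf1, Lhx5 and Nkx2-2.

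A stretch from the 250 bases before the start of transcription is shown for the 3 genes that were higher without Dlx1 and Dlx2. It is also shown for Sim1 and Fezf1, which hold a homeodomain core. Sequences are from RefSeq on GRCm38.p6, written 5′ to 3′ on the strand of the gene. Each begins 250 bases before the start and stops where an exon of GENCODE M21 begins, which for Sim1 leaves only the first 72 bases. For Hmx2 the first of its listed starts is used. Capitals mark TAATT or its reverse complement AATTA, the core that many homeodomain proteins, the Dlx family included, bind.
Otp (chr13:94875386-94875601, + strand): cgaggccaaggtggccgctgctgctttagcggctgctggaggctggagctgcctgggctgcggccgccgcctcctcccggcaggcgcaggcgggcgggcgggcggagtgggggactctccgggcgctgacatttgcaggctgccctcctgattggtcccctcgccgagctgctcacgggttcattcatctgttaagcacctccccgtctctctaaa
Hmx3 (chr7:131542713-131542866, + strand): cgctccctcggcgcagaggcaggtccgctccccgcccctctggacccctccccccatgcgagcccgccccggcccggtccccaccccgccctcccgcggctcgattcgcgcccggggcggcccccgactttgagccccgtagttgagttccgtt
Hmx2 (chr7:131548507-131548756, + strand): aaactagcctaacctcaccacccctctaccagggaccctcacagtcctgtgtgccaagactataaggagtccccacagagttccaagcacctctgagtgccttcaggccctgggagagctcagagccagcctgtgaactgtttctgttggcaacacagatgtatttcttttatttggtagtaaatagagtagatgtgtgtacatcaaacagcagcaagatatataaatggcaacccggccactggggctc
Sim1 (chr10:50895401-50895472, + strand): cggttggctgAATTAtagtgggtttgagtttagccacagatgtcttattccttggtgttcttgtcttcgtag
Fezf1 (chr6:23248363-23248514, - strand): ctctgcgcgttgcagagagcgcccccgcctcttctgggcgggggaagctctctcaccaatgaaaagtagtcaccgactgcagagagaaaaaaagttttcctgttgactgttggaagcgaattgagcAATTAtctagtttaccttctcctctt

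Of the 10 members, 8 had a promoter in the table, and the core was found on either strand in 2 of them. Of all 32851 windows of 250 bases before a start, 25% held it. The windows of Otp, both starts of Hmx2, and Hmx3 held no match. The GC content of the full windows was 65.2% for Otp, 76.8% for Hmx3 and 49.6% for the first Hmx2 start, against 45.6% for Sim1 and 47.6% for Fezf1. For the second Hmx2 start it was 70%. The longer palindrome TAATTA, which contains the core, was in none of the 8 members and in 4.84% of all windows. No match says only that these letters are not in this window.

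In the gene order of GENCODE M21, with only tested protein-coding genes kept, Hmx3 and Hmx2 stand next to each other on chromosome 7. Acadsb and Bub3 are on either side of the pair. Acadsb, an acyl-CoA dehydrogenase gene, had a log2 fold change of 0.06 (SE 0.055), and Bub3, a mitotic checkpoint gene, of 0.27 (SE 0.0728). The nearest such genes on either side of Otp on chromosome 13 are Tbca, for a tubulin folding cofactor, and Wdr41. Their log2 fold changes were 0.23 (SE 0.0523) and 0.10 (SE 0.0616). The nearest tested protein-coding gene on each side was taken for each member other than Rax, so genes that were not tested were skipped. With members such as Hmx2 and Hmx3 left out, this gave 14 flanking genes. Of these, 0 were called by edgeR's quasi-likelihood test. An unadjusted p under 0.05 was found for 5 of the 14 and for 3149 of all 23628 tested genes. DESeq2 called 3 of the 14, Bub3, Cadps2 and Tbca, against 1162 of all 23628 genes, and limma-voom called 0 of the 14. In the edgeR fit without double knockout replicate 1, Cadps2 was called.

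Sim1 (ENSMUSG00000019913) differed from Otp in its pattern over the libraries. Sim1 was at 11.1, 3.95 and 11.8 CPM in wild-type replicates 1 to 3 and at 20.7, 16.9 and 2.96 CPM in double knockout replicates 1 to 3. The groups overlapped, since double knockout replicate 3 was below every wild-type library. In that library Sim1 was at 15.7% of the mean of the other 2 double knockouts, while Otp was at 103%. The log2 fold change of Sim1 was 0.59 (SE 0.623) with all libraries and 1.08 (SE 0.368) without double knockout replicate 3. Among 4225 tested genes of similar level, 99.8% had a smaller coefficient of variation in the double knockout than the 69.1% of Sim1, and 99.1% had a smaller one in the wild type than its 48.5%.

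Arnt2 (ENSMUSG00000015709), the dimer partner of Sim1, was the most evenly expressed member. It was at 342, 332 and 327 CPM in the wild type and 312, 294 and 307 CPM in the double knockout. All 3 double knockout libraries were below the wild type, and such separation in either direction was seen for 19.5% of all tested genes. The log2 fold change of Arnt2 was -0.13 (SE 0.0509), and it was not called. Exons of Gm30873 overlap Arnt2 on the opposite strand, but that gene had 69 to 118 reads, against 16953 to 21361 for Arnt2.

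The wider bHLH-PAS family held 16 listed genes, all tested, of which 1 (6.25%) was called, against 2.68% of all tested genes. Nothing is read from this share, since the lists were chosen with earlier results of these data known. Npas1, a factor of cortical interneurons and other GABAergic neurons, fell from 3.30 to 3.93 CPM in the wild type to 0.885 to 1.20 CPM in the double knockout. The difference was -1.80 on the log2 scale (SE 0.167; edgeR adjusted p = 8.83e-04). Sim2, the paralogue of Sim1, was at 0.420 to 0.592 CPM in the wild type and 0.259 to 0.937 CPM in the double knockout, and Arnt, the paralogue of Arnt2, had a log2 fold change of 0.05 (SE 0.0682). The median log2 fold change of the family was 0.00294, against -0.00161 over all tested genes. DESeq2 called 2 of the 16, adding Arntl, a clock gene.

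Fezf1 and Lhx5 had log2 fold changes that rose when double knockout replicate 3 was left out. Fezf1 (ENSMUSG00000029697), a zinc finger repressor needed for olfactory and forebrain development, was at 16.9, 15.1 and 22.7 CPM in the wild type and 22.3, 27.1 and 6.04 CPM in the double knockout. Its lowest library was double knockout replicate 3 and its highest was double knockout replicate 2. The log2 fold change of Fezf1 was 0.02 (SE 0.441) with all libraries and 0.44 (SE 0.164) without replicate 3. Fezf1 was not called in either fit. Its relative Fezf2, a factor of subcerebral projection neurons, was at 26.4 to 34.03 CPM in the wild type and 24.5 to 27.8 CPM in the double knockout, with a log2 fold change of -0.25 (SE 0.107).

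Lhx5 (ENSMUSG00000029595), a LIM homeodomain factor of the hypothalamus and of the cortical hem, was at 8.65, 8.63 and 9.46 CPM in the wild type. In the double knockout Lhx5 was at 14.2, 16.2 and 8.53 CPM. Replicates 1 and 2 lay above the wild type, and replicate 3 lay just below it. The log2 fold change of Lhx5 was 0.54 (SE 0.206) with all libraries and 0.78 (SE 0.10) without replicate 3. Lhx5 passed the threshold only in that fit, which raised the count of members called from 3 to 4. Its close paralogue Lhx1 was at 5.77 to 7.30 CPM in the wild type and 9.75 to 11.7 CPM in the double knockout. Lhx1 rose by 0.73 on the log2 scale (SE 0.12; edgeR adjusted p = 0.0157). That call was lost without wild-type replicate 1 or 2 or double knockout replicate 1 or 2 (highest edgeR adjusted p = 0.0774). Exons of Gm27199 overlap Lhx5 on the opposite strand, with 27 to 75 reads against 507 to 934 for Lhx5.

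**Figure D2:**
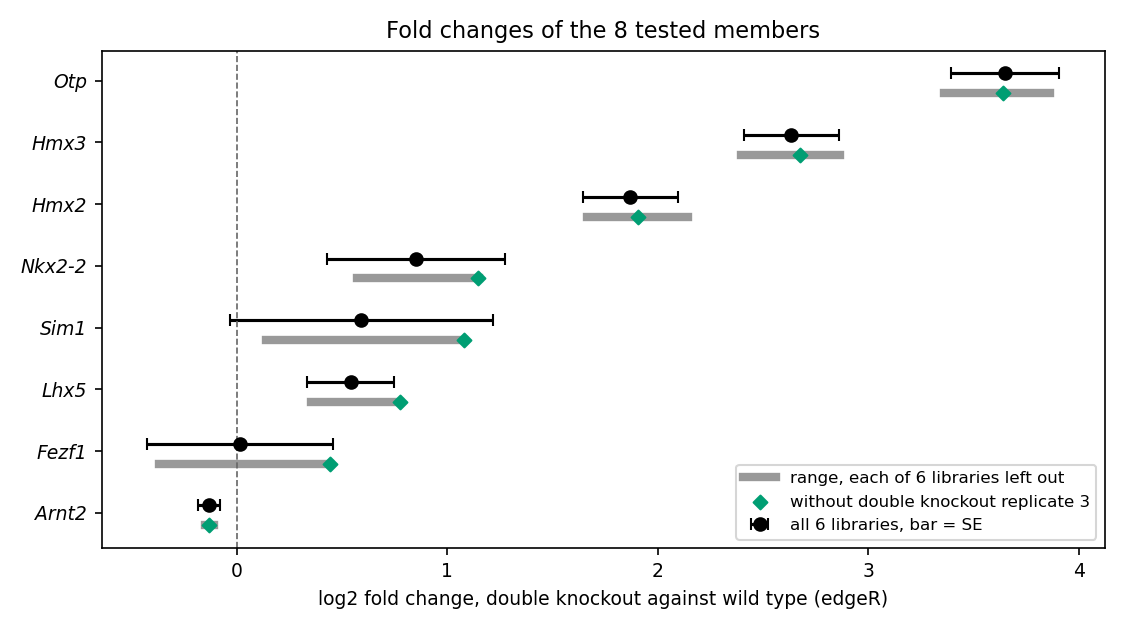
Log2 fold changes of the 8 tested members, double knockout against wild type, with the SE as a bar, the range over fits that each left out 1 of the 6 libraries in grey, and the fit without double knockout replicate 3 as a diamond. Otp, Hmx3 and Hmx2 stay above 1.66 in every such fit, while the grey range of Fezf1 crosses 0.

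Nkx2-2, Nkx2-4 and Rax were at the edge of detection or below it. Nkx2-2 (ENSMUSG00000027434), which specifies ventral neurons and later oligodendrocytes, had 18, 12 and 11 reads in the wild-type libraries and 35, 25 and 16 reads in the double knockouts. The ranges overlapped, and its log2 fold change was 0.85 (SE 0.424) and 1.14 (SE 0.406) without double knockout replicate 3. The antisense gene Nkx2-2os, which overlaps it, had 1 read in all. Nkx2-4 had 2 reads in wild-type replicate 3, 2 in double knockout replicate 3 and 0 in the others. Rax had 2 and 1 reads in double knockout replicates 1 and 2 and 0 in the other 4 libraries. Both genes were below the floor of 3 reads in every library, so no fold is given and neither was tested. A difference in Rax or Nkx2-4 was not detectable at this depth.

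Among relatives of the Nkx2 members, Nkx2-1, which marks both the medial ganglionic eminence and the hypothalamus, was at 118 to 139 CPM in the wild type and 169 to 231 CPM in the double knockout. It rose by 0.59 on the log2 scale (SE 0.114; edgeR adjusted p = 0.0322). The call was lost with Y-linked expression as a covariate and without any 1 wild-type library or double knockout replicate 1 (highest edgeR adjusted p = 0.147). Nkx2-3 was at 9.18 to 11.3 CPM and 10.5 to 16.5 CPM, and Nkx2-9 was at 0.0683 to 0.234 CPM and 0.108 to 0.317 CPM, both with overlap. Nkx2-6 had no read in any library, and Nkx2-5 had 1.

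To set the members against each other, CPM was divided by the exon length in kb of each gene in GENCODE M21. In the wild type the order of these mean levels was Arnt2 (43.4 CPM per kb), Fezf1 (7.58), Lhx5 (3.32), Otp (3.28), Sim1 (1.04), Hmx3 (0.818), Hmx2 (0.418) and Nkx2-2 (0.0771). Lhx5 and Otp overlapped over the libraries, as did Sim1 and Hmx3, and Hmx3 and Hmx2. In the double knockout Otp was first, at 41.1 CPM per kb, beside Arnt2 at 39.6, with overlapping libraries. Fezf1 (7.67), Hmx3 (5.07) and Lhx5 (4.83) followed and overlapped each other. Sim1 (1.57) and Hmx2 (1.53) also overlapped, and Nkx2-2 was last at 0.140 CPM per kb.

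**Figure D3:**
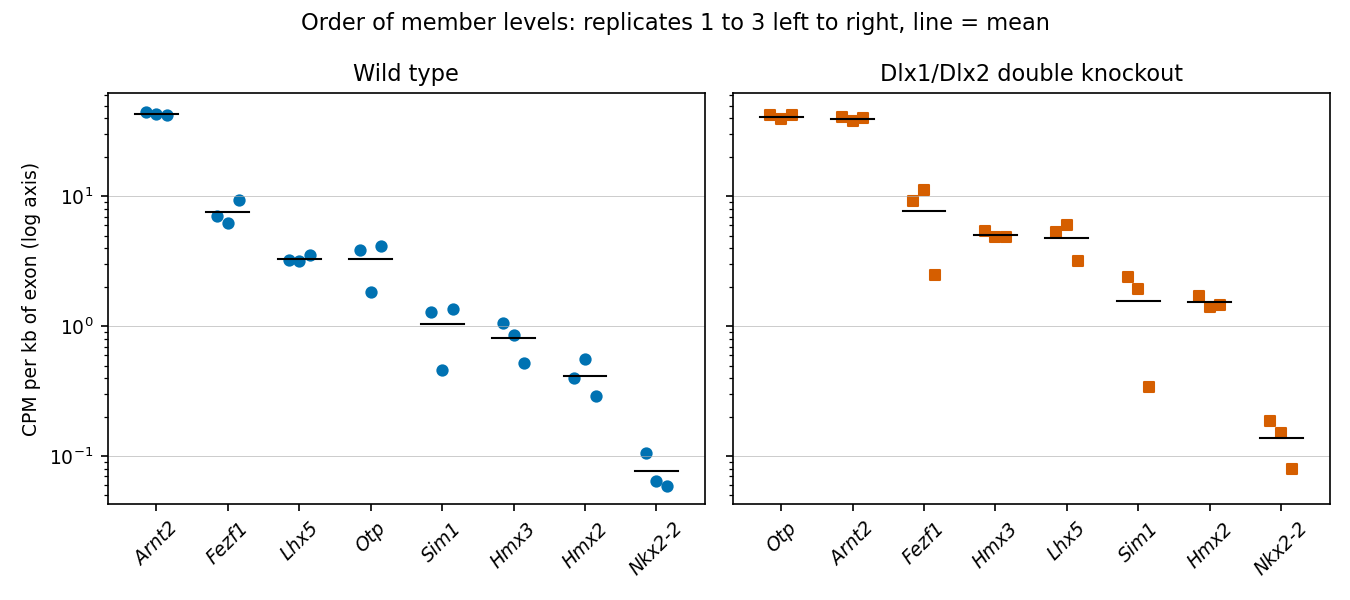
CPM per kb of exon on a log axis for the 8 tested members, ordered by mean within each genotype, with replicates 1 to 3 from left to right and the mean as a line. Otp moves from the fourth place in the wild type to the first in the double knockout, next to Arnt2.

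Otp and Sim1 are known to lead to peptide genes, and those were examined next. Avp and Oxt, for vasopressin and oxytocin, had 0 to 2 and 0 to 3 reads per library and were not tested. Crh had 3 to 19 wild-type and 3 to 18 double knockout reads, and a log2 fold change of -0.04 (SE 0.717). Trh had 15 to 38 and 34 to 64 reads, a log2 difference of 0.80 (SE 0.432), and its groups overlapped. Pou3f2, the POU factor between Otp and these genes, was at 198 to 214 CPM in the wild type and 213 to 282 CPM in the double knockout, a log2 difference of 0.23 (SE 0.0954) with no call. Ghrh, the hormone gene tied to Hmx2 and Hmx3, was at 0.451 to 0.939 CPM and 0.605 to 0.801 CPM, also with no call. At this age and depth no difference in these genes was called beside the higher Otp, Hmx2 and Hmx3. The somatostatin gene Sst, also known to lie downstream of Otp and Sim1, was called lower and is given next.

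Of the 23 listed peptide and transmitter genes of hypothalamic neurons, 16 were tested and 3 were called, 1 higher and 2 lower. That is 18.8% of those tested, against 2.68% of all tested genes. The list was chosen with earlier results of these data known, so nothing is read from its share. Npy, for neuropeptide Y, rose from 14.98 to 16.1 CPM in the wild type to 23.0 to 31.2 CPM in the double knockout. That is 0.79 on the log2 scale (SE 0.11; edgeR adjusted p = 0.00728). Th, for the rate-limiting enzyme of dopamine synthesis, fell from 4.81 to 5.17 CPM to 1.49 to 2.38 CPM, or -1.47 on the log2 scale (SE 0.191; edgeR adjusted p = 0.00492). Sst, for somatostatin, fell from 56.8 to 61.8 CPM to 33.4 to 46.3 CPM, or -0.58 on the log2 scale (SE 0.107; edgeR adjusted p = 0.0261). The call of Sst was lost with the Y-linked covariate and without any 1 wild-type library or double knockout replicate 1 (highest edgeR adjusted p = 0.109). These 3 genes also belong to interneurons of the telencephalon and its derivatives. Nts, for neurotensin and the highest gene of the list that was not called, was at 4.29 to 5.96 CPM and 1.96 to 7.75 CPM. The median log2 fold change of the list was -0.01.

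Of 28 other transcription factors of hypothalamic regions and lineages, 21 were tested. Of these, 4 were higher and 1 was lower, or 23.8%, against 2.68% of all tested genes. The median log2 fold change of the list was 0.33, against -0.00161 over all tested genes. This list too was chosen with earlier results of these data known, so nothing is read from its share or median. Besides Lhx1 and Nkx2-1, the genes that rose were Gsx1 and Isl1. Gsx1, a homeobox gene of ventral progenitors and of the growth hormone-releasing hormone lineage, rose by 2.95 on the log2 scale (SE 0.138; edgeR adjusted p = 1.85e-05). Isl1, a LIM homeodomain gene of striatal and arcuate neurons, rose by 0.62 on the log2 scale (SE 0.0789; edgeR adjusted p = 0.00442). Vax1, a ventral forebrain homeobox gene, fell from 15.7 to 16.6 CPM to 9.30 to 10.7 CPM, or -0.68 on the log2 scale (SE 0.0852; edgeR adjusted p = 0.00414). Of the 28 genes, 13 averaged 1 CPM or more in the wild type. Without double knockout replicate 3 the list held 7 calls, with Lhx9 and Dbx1 added. It held 3, Gsx1, Isl1 and Vax1, without wild-type replicate 1 or 2 or double knockout replicate 1.

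**Figure D4:**
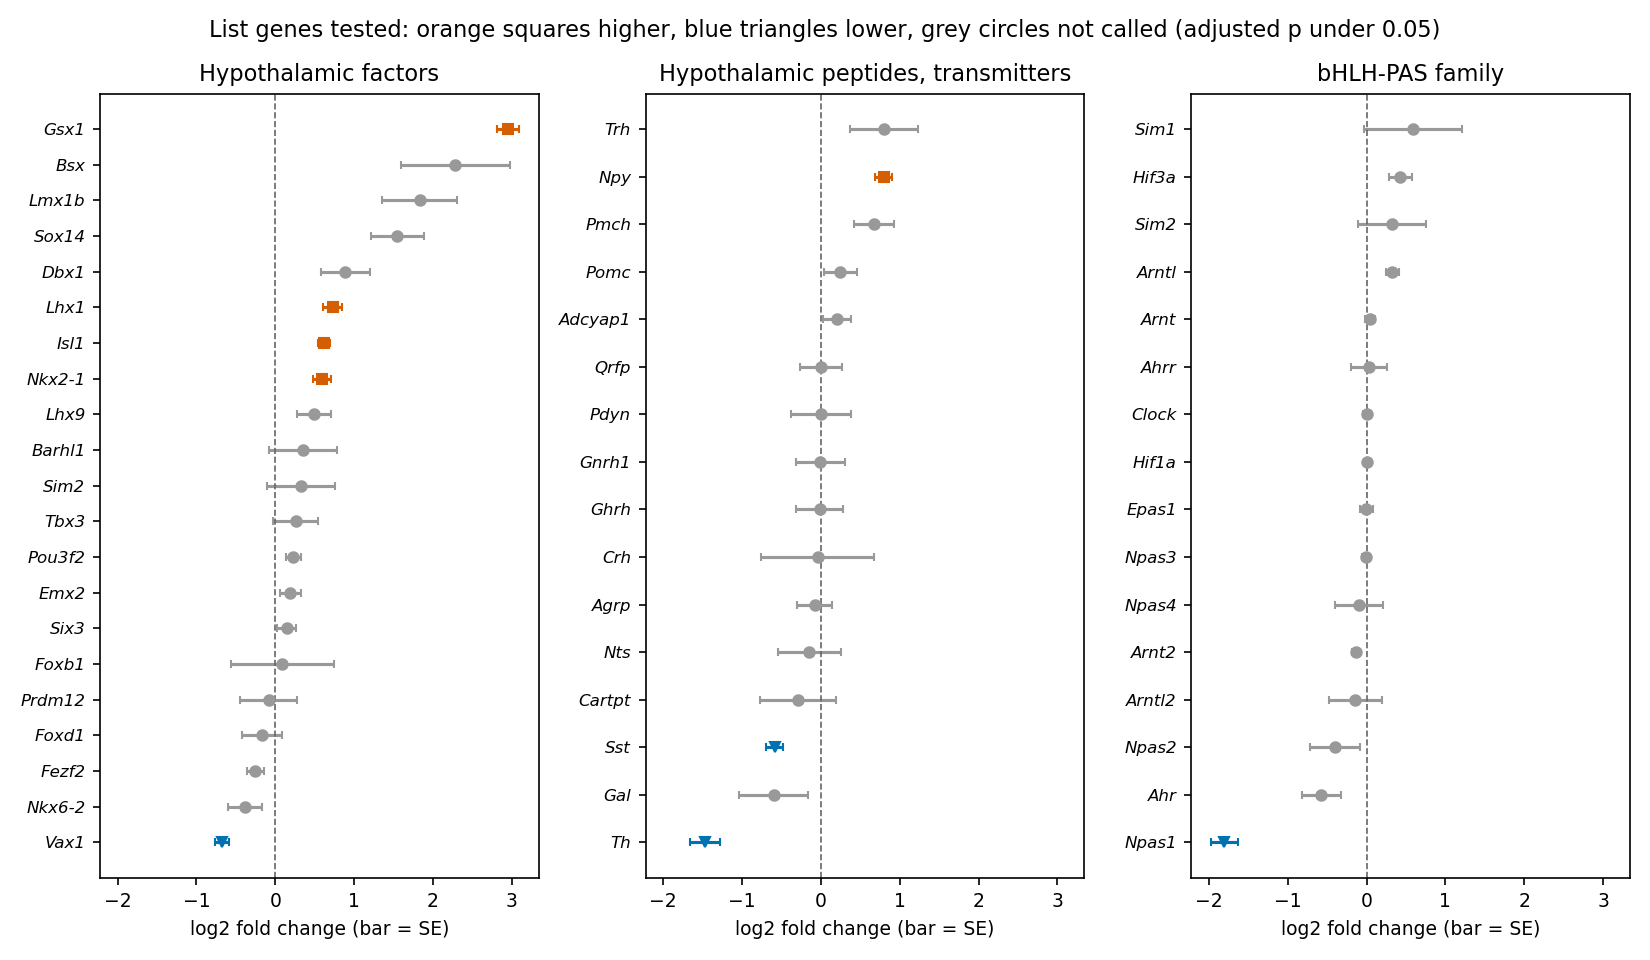
Log2 fold changes with SE of the tested genes of 3 lists, hypothalamic factors (21 genes), hypothalamic peptides and transmitters (16) and the bHLH-PAS family (16). Orange squares are higher and blue triangles lower in the double knockout at an adjusted p under 0.05, with 4 and 1, 1 and 2, and 0 and 1 genes in the 3 lists.

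Because tissue next to the ganglionic eminences could be taken along, marker lists of neighbouring regions were read library by library. Of 20 hypothalamic markers outside the members, 14 were tested and 0 were called by edgeR's quasi-likelihood test. An unadjusted p under 0.05 was found for 5 of the 14 and for 3149 of all 23628 tested genes. DESeq2 called Sox14 and limma-voom called Bsx and Sox14. Their summed level was 42.4 to 53.5 CPM in the wild type and 79.3, 80.8 and 47.5 CPM in double knockout replicates 1 to 3. Most of it was Lhx9, at 32.2 to 40.3 CPM and at 58.7, 62.1 and 31.8 CPM. Avp and Oxt had at most 3 reads in every library, and Nr5a1, of the ventromedial nucleus, had 0 wild-type reads and 3 to 12 reads per double knockout library. Without double knockout replicate 3, edgeR called 2 of these markers, Dbx1 and Lhx9, and the log2 fold change of Lhx9 went from 0.49 (SE 0.22) to 0.75 (SE 0.0885; edgeR adjusted p = 0.00302). Without wild-type replicate 3 it called Bsx. The part of neighbouring tissue in the member differences was not tested.

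Of 5 thalamic markers, 0 were called by edgeR's quasi-likelihood test. An unadjusted p under 0.05 was found for 3 of the 5 and for 3149 of all 23628 tested genes. These 3 markers were Gbx2, Tcf7l2 and Rora, which DESeq2 called. Without double knockout replicate 3 edgeR called Lhx9 and Tcf7l2, and without wild-type replicate 3 it called Tcf7l2. Their summed level was 74.9 to 85.1 CPM in the wild type and 94.4 to 124 CPM in the double knockout. The 9 midbrain and pretectal markers summed to 4.14 to 4.93 CPM and 27.7 to 36.5 CPM. Of the 7 tested, 3 rose, Pax7, Pax5 and Tal2, while En1 had 0 to 3 reads. Hindbrain and spinal cord markers summed to at most 0.231 CPM and pituitary markers to at most 0.156 CPM in any library. Eye markers summed to 1.602 to 2.54 CPM, most of it Mitf. Of 8 markers of Cajal-Retzius cells and the cortical hem, 7 were tested and 2 rose, Ebf3 and Lhx1, with sums of 295 to 348 CPM and 269 to 440 CPM. The call of Ebf3 was lost in 9 of 15 other settings (highest edgeR adjusted p = 0.133, without wild-type replicate 1), while without double knockout replicate 3 it held (edgeR adjusted p = 0.00015). Of 5 choroid plexus markers, 2 were tested, and 0 were called by edgeR, DESeq2 or limma-voom. In edgeR, 0 had an unadjusted p under 0.05. Ttr, Folr1 and Kcne2 were not tested. The 5 markers summed to 32.2 CPM in wild-type replicate 1, of which Ttr made up 26.3 CPM. In wild-type replicates 2 and 3 the sums were 0.809 and 0.764 CPM, and in the double knockout 0.851 to 1.45 CPM. Of the 9 ganglionic eminence markers, 2 rose (Gsx2 and Nkx2-1) and 4 fell (Lhx6, Lhx8, Ebf1 and Gad1). The call of Gsx2 was lost without wild-type replicate 1 or 2, and that of Lhx6 without any 1 library other than double knockout replicate 3. The part of these tissues in the levels of Otp, Hmx2 and Hmx3 was not tested. Over all 23628 tested genes, 2.68% were called. The marker lists were chosen with earlier results of these data known, so nothing is read from the share of calls in a list.

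Double knockout replicate 3 was low in a further group of genes along with Sim1 (15.7% of the mean of replicates 1 and 2), Fezf1 (24.4%), Nkx2-2 (47.4%) and Lhx5 (56.1%). Olig3 was at 21.9%, Sim2 at 31.8%, Dbx1 at 51.3%, Lhx9 at 52.6%, Ebf3 at 58.9% and Reln, of Cajal-Retzius cells, at 65.9%. Gbx2, a thalamic marker as are Olig3 and Lhx9, was at 174.6%. Nor was the hypothalamic marker list, which holds Dbx1 and Lhx9, low throughout in double knockout replicate 3. Tbx3 was at 1.21 CPM there, against 1.08 and 0.728 CPM in replicates 1 and 2. Barhl1 was at 0.375 CPM, against 0.169 and 0.347 CPM, and Lmx1b at 0.346 CPM, against 0.200 and 0.330 CPM. Sox14 was level, at 0.836 CPM against 0.847 and 0.815 CPM. The medial ganglionic eminence genes Nkx2-1, Lhx6 and Lhx8 were instead at 133%, 153% and 156% in that library. Otp, Hmx2, Hmx3 and Arnt2 were at 103%, 93.4%, 93.5% and 101%. These comparison genes were named after their values were seen. Across the 6 libraries, with the genotype means removed, the log2 levels of Fezf1 and Lhx5 had a Pearson correlation of 0.99, Sim1 and Fezf1 of 0.91, and Otp and Fezf1 of 0.14. For Otp and Sim1 it was 0.46, and for Otp and Hmx2 it was -0.83. These are descriptions over 6 libraries of like depth, and in the first 2 double knockout replicate 3 is the low point.

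**Figure D5:**
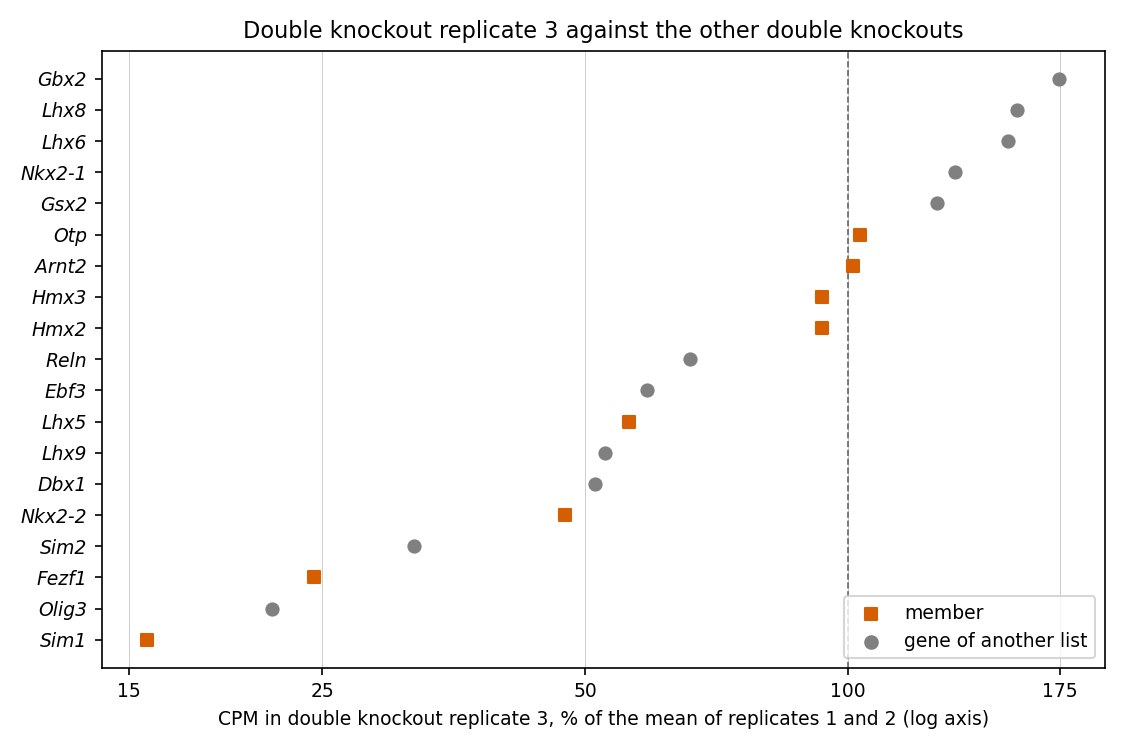
CPM in double knockout replicate 3 as a percentage of the mean of double knockout replicates 1 and 2, on a log axis, for the 8 tested members (squares) and 11 genes of other lists (circles). Otp, Arnt2, Hmx3 and Hmx2 lie at 93.4% to 103%, while Sim1, Fezf1, Nkx2-2 and Lhx5 lie at 15.7% to 56.1%.

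The genes whose log2 CPM over the 6 libraries was most like that of Otp, by Pearson correlation among 16486 genes at 1 CPM or more on average, were Bckdk, Hap1, Olig1, Prag1, Nuak2 and Rreb1, at 0.9939 to 0.9964. In all 6, as in Otp, wild-type replicate 2 was the lowest library. Rreb1, a zinc finger gene, had a log2 fold change of 1.03 (SE 0.0945), and Olig1, of the oligodendrocyte lineage, of 1.13 (SE 0.119). Bckdk, for a kinase of branched-chain amino acid metabolism, had one of 0.10 (SE 0.0542) and was not called. The likeness is a ranking over libraries that share the genotype difference and carries no test.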

How the data were processed

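Per the labels' protocols, RNA of frozen tissue was DNase-treated, and stranded libraries were made after depletion of ribosomal RNA. The authors deposited raw read counts per gene, made with featureCounts on GRCm39 per the submitters' processing notes. The aligner, the annotation release, and the strand and multi-mapping settings are not given in the sources used here, so overlaps on the opposite strand are stated.

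Groups and replicate numbers came from the sample titles. Counts of 55416 genes, 1492 without a symbol, were filtered with filterByExpr (minimum count 10, minimum total 15), which left 23628. They were scaled by TMM and tested with the quasi-likelihood test of edgeR 4.0.16 in R 4.3.3, with Benjamini-Hochberg adjustment over all tested genes, a threshold of 0.05 and a prior count of 0.125. The SE was taken from the coefficient and the F statistic of the fit. The procedure was also run on simulated counts, with dispersions taken from these data and changes set only in genes averaging at least 1 CPM. The outcome is not reported here and nothing is read from it. CPM is TMM-scaled, and correlations used log2 of CPM plus 0.5. Exon lengths, overlaps and gene order came from GENCODE M21 on an earlier build than that of the counts.

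The members, lists and naming rule were chosen with earlier results of these data known. The rule named the members, called list genes (up to 8 per list) and the highest gene not called, paralogues, flanking genes, known targets and the 6 genes most like Otp; Dbx1, Lhx9, Ebf3, Ghrh and other genes of the marker lists were added to the text once their values had been seen. Alternatives were DESeq2 size factors, total count scaling, DESeq2 1.42.0, limma-voom (limma 3.58.1), a robust prior, 2 other filters, the replicate number as a block, summed Y-linked expression as a covariate, a threshold of 0.01, a prior count of 2 for the members, and each library left out. For the list genes, settings were added after the data had been seen. Results for some genes of the lists are not reported here.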

Additional observations from a re-analysis of the deposited data

How the results depend on the processing

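The 3 calls among the members, Otp, Hmx3 and Hmx2, held in each of 16 alternatives to the count of members called, which was 3 to 4. Their log2 fold changes ranged from 3.36 to 3.86, 2.40 to 2.87 and 1.66 to 2.14. The sign of Fezf1 turned with limma-voom (-0.27), with the replicate block (-0.17) and without 1 of 4 libraries, over fits without a library from -0.37 to 0.44. The sign of Nts turned without double knockout replicate 3 (0.23), and its fits without a library ranged from -0.75 to 0.23. Over all tested genes, 634 were called with all libraries, 1162 with DESeq2, 359 with the Y-linked covariate, 275 at an adjusted p under 0.01 and 309 to 749 without 1 library. The hypothalamic factor list held 5 calls, 3 at an adjusted p under 0.01 and 3 to 7 without 1 library. The bHLH-PAS list held 1 call, 2 with DESeq2 and 1 to 2 without 1 library, Hif3a being added without wild-type replicate 3. The cause was not tested for any of these changes. With the replicate number as a block, 3 members were called, and same-numbered libraries had correlations of 0.256, 0.0835 and 0.132 in their deviations from the group means. The labels do not tie the numbers to litters, so the libraries were not taken as paired. Depth limits what can be said of Rax, Nkx2-4, Avp and Oxt, which had at most 3 reads in any library, and of Nkx2-2, with 11 to 35.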

Other observations

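Low-level genes of hypothalamic nuclei showed values that a reader may want to look at again. Bsx, a homeobox gene of the arcuate and dorsomedial nuclei, was at 0.137, 0.171 and 1.48 CPM in wild-type replicates 1 to 3 and at 2.82, 3.50 and 2.49 CPM in the double knockout. Its log2 fold change was 2.28 (SE 0.69) with no call in edgeR's quasi-likelihood test, and 4.23 (SE 0.297) without wild-type replicate 3, where it was called. Sox14, of thalamic, pretectal and hypothalamic neurons, was at 0.156 to 0.404 CPM and 0.815 to 0.847 CPM, with an edgeR adjusted p of 0.0503. Lmx1b, of the mammillary region and midbrain, was at 0.0468 to 0.119 CPM and 0.200 to 0.346 CPM, with an edgeR adjusted p of 0.0942. Foxb1, also of the mammillary region, was at 0.0622 to 0.512 CPM and 0.173 to 0.370 CPM, with overlap.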
